A study of Mus musculus with 6 samples.

Results

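The suppressors of cytokine signalling form a family of 8 genes in the mouse, Socs1 to Socs7 and Cish, and all 8 were found by gene name among the 54532 genes of the deposited table. Their expression was read by RNA sequencing in bone marrow derived macrophages, phagocytes grown from mouse marrow, in 6 libraries, of which 3 carry the label Tet2 knockout and 3 the label wild-type. Cells of both groups had been treated with MSU (monosodium urate, the crystal deposited in gout), and untreated cells were not analysed here. The labels give neither the Tet2 allele nor the strain, age or number of the mice, nor the dose and time of MSU, and do not say whether libraries of a group came from separate animals or cultures, so p-values measure the spread between libraries only.

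SOCS proteins are feedback inhibitors of cytokine receptors that signal through JAK kinases and STAT transcription factors. Activated STATs switch on SOCS genes, the SH2 domain of the protein binds phosphorylated tyrosines on the receptor or kinase, and the SOCS box at its end joins elongins B and C and a cullin to form a ubiquitin ligase. SOCS1 and SOCS3 can also block the JAK active site directly, and in macrophages they restrain the responses to interferons and to interleukin 6.

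Socs3, Socs1 and Cish were higher in the knockout-labelled libraries, by 1.43-fold, 1.46-fold and 1.52-fold. Socs2, Socs4, Socs5, Socs6 and Socs7 did not pass the test. All 8 members had enough reads to be tested, and 3 of 8 passed an edgeR adjusted p of 0.05, all of them higher. Over the whole transcriptome 40.9% of the 13175 tested genes passed, with 21.6% higher and 19.2% lower, so a share of 3 in 8 was near that background. The libraries of the groups did not overlap in 3 of the 8 members, all higher, against 47.8% of all tested genes in either direction and 24.8% in the higher direction. The median log2 change was 0.045 over the 8 members and -0.0031 over all tested genes.

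Total counts ran from 11997104 to 14481843 per library, and wild-type replicate 2 stood apart, differing from the others of its group by 2.30 and 2.32 times sampling noise where other pairs within a group differed by 1.55 to 1.71. As a check of the labels, Tet2 itself was not lower in the knockout-labelled libraries, where its raw counts were 467, 482 and 450, against 413, 338 and 427 in the wild-type-labelled libraries. Scaled for depth it was higher without overlap, at 32.7, 34.2 and 34.0 CPM (read counts scaled to library size with TMM factors) against 29.3, 27.9 and 30.7 CPM. The check therefore did not bear out the labels, and the reason was not tested. The allele is not given, and a count over all exons need not fall with a partial deletion. Each direction here is that of the label. The 9 macrophage markers summed to 7025 to 7294 CPM in the knockout-labelled libraries and to 6835 to 7242 CPM in the wild-type-labelled libraries, with 4 higher, Adgre1, Csf1r, Mertk and Fcgr1, and 3 lower, Lyz2, Cd14 and Cd68. Fibroblast markers were abundant too: Col1a1, a collagen gene, stood at 3190.1 CPM in the knockout-labelled libraries and 3448 CPM in the wild-type-labelled ones. The 8 fibroblast markers summed to 6511 to 6671 CPM in the knockout-labelled libraries and to 6776 to 7251 CPM in the wild-type-labelled libraries. Of these, 1 was higher, Col3a1 (log2 change 0.11), and 4 were lower, Col1a1, Col1a2, Dcn and Lum. The part of fibroblasts in the values of the SOCS genes was not tested. In bulk RNA a change in the number of cells of a type cannot be told apart from a change in RNA per cell. Neutrophil markers summed to at most 2.04 CPM in any library, and erythroid and mast cell markers were at or near 0. T and NK cell markers summed to 12.02 to 13.6 CPM against 4.26 to 5.17 CPM, most of it Cd4, while Cd3d and Cd3g had no read in any library. Dendritic cell markers summed to 5.40 to 6.67 CPM against 3.26 to 4.81 CPM, and B cell markers to 5.82 to 6.95 CPM against 6.43 to 7.33 CPM.

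Socs3 (ENSMUSG00000053113, mm10 chromosome 11, positions 117966079 to 117970047, minus strand) encodes the inhibitor that binds the shared receptor subunit of interleukin 6 family cytokines. It had 155, 155 and 165 CPM in the knockout-labelled libraries, against 110, 111 and 111 CPM in the wild-type-labelled libraries. The groups did not overlap, and the lowest knockout-labelled library lay far above the highest wild-type-labelled one, a gap much wider than the spread within either group. The log2 change was 0.52 (SE 0.04, 95% interval 0.44 to 0.59; edgeR quasi-likelihood adjusted p = 2.88e-23). The value rests on 1345 to 2207 reads per library, and the change was larger in size than that of 88.9% of tested genes. Without wild-type replicate 2 it was 0.51.

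Socs1 (ENSMUSG00000038037, chromosome 16, positions 10782240 to 10785536, minus strand) encodes the main brake on interferon receptors. Its levels were 11.6, 11.3 and 10.96 CPM in the knockout-labelled libraries and 7.38, 8.24 and 7.61 CPM in the wild-type-labelled libraries. Again the groups did not overlap. The log2 change was 0.55 (SE 0.12, 95% interval 0.31 to 0.79; edgeR adjusted p = 0.000106). It came from fewer reads than that of Socs3, 145 to 166 per knockout-labelled library and 100 to 106 per wild-type-labelled library, and its interval is wider. Leaving out wild-type replicate 2 gave 0.58.

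Cish (ENSMUSG00000032578, chromosome 9, positions 107296026 to 107302784, plus strand) encodes CIS, an inhibitor induced through STAT5 that acts on receptors of growth hormone and several interleukins. It was the member with the fewest reads, with 40, 58 and 47 counts in the knockout-labelled libraries and 33, 26 and 33 in the wild-type-labelled libraries. In scaled units these were 2.80, 4.11 and 3.55 CPM against 2.34, 2.14 and 2.37 CPM, so the groups did not overlap but the knockout-labelled libraries were spread widely. The log2 change of 0.60 had a wide error (SE 0.22, 95% interval 0.16 to 1.05; edgeR adjusted p = 0.0233). The call was lost with DESeq2 (adjusted p = 0.0905) and, in edgeR, without knockout replicate 2 (adjusted p = 0.161) or 3 (0.0571) and without wild-type replicate 1 (0.0526) or 2 (0.0650). A pseudogene and an antisense gene overlap Cish on the other strand, and were given 1 and 0 reads in total over the 6 libraries. Without strand information, reads in the overlap cannot be told apart.

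**Figure D1:**
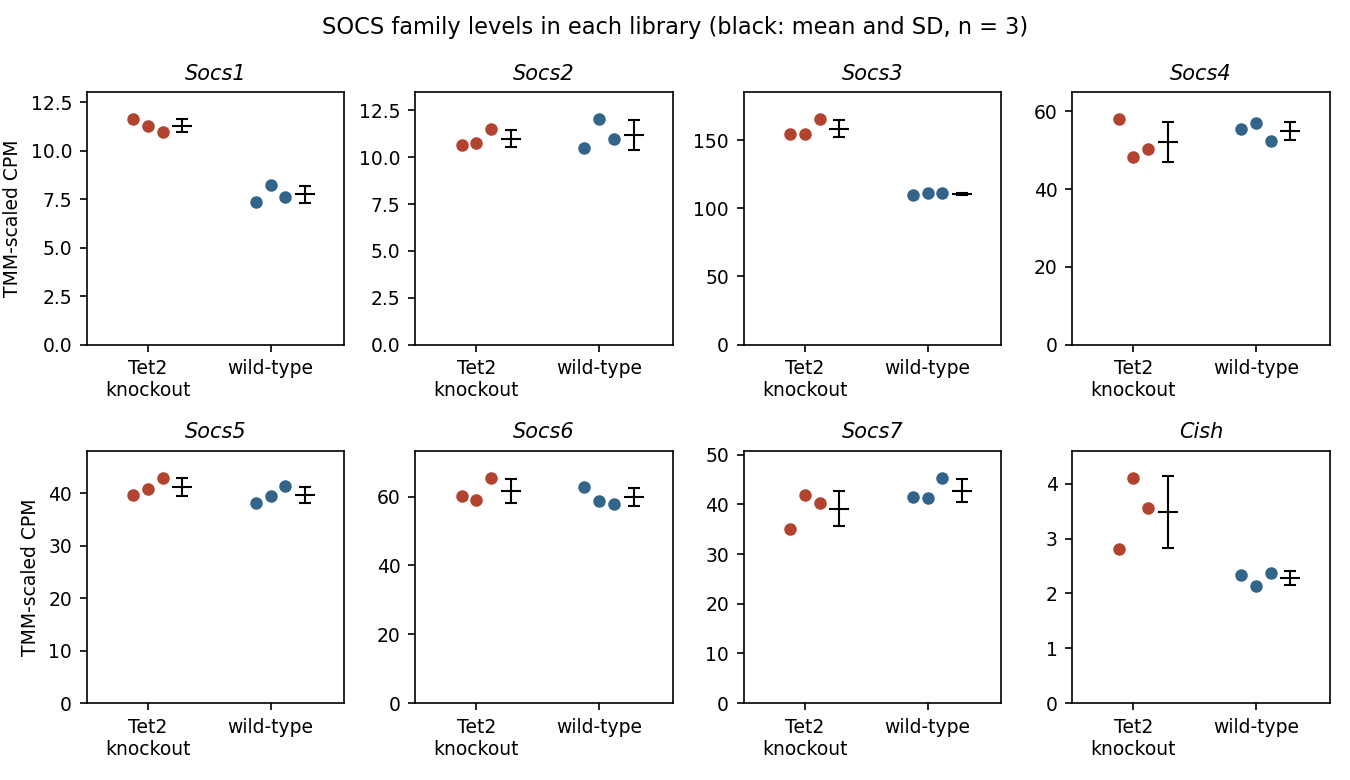
TMM-scaled CPM of the 8 SOCS family genes in each library (coloured points; the black mark and bar are the mean and SD of 3 libraries). The points of the knockout-labelled libraries lie above all wild-type-labelled points for Socs1, Socs3 and Cish and overlap them for the other 5 genes.

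The promoters of the called members are shown because Socs1, Socs3 and Cish are known as feedback targets of STATs. Whether their changes share a cause was not tested. Socs2, a STAT5 target too, did not pass. Of the 8 members, 4 had a RefSeq promoter window (build GRCm38.p6), which holds 300 bases around the start of the gene, and these were Socs1, Socs3, Socs4 and Cish. Both strands were searched for TTCNNNGAA, the core STAT motif, for its longer form preferred by STAT6, with 4 free bases in place of 3, and for the core repeat bound by interferon regulatory factors, a pair of GAAA blocks 2 bases apart. The 200 bases before the start are given for Socs1 (chr16:10785537-10785736, minus strand) and Socs3 (chr11:117969367-117969566, minus strand), and 30 bases across the start for Cish (chr9:107296654-107296683, plus strand), each 5′ to 3′ on the strand of the gene with the motif matches in capitals.
Socs1: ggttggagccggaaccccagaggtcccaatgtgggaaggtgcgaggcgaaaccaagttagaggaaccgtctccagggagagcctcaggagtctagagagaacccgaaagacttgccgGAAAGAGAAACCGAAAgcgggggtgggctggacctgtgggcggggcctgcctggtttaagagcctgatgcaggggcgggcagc
Socs3: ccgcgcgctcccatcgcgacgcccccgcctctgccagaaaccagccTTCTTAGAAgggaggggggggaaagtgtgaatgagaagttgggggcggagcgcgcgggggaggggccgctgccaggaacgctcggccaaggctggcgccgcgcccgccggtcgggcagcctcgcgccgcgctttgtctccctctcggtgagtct
Cish: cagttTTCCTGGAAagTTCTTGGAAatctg

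In Socs1 the capitals hold 2 overlapping matches to the interferon regulatory factor repeat, at bases -83 to -74 and -77 to -68 counted from the start. At least 1 such match occurs in 3.44% of 32851 RefSeq promoter windows of the same length, and 2 or more in 0.225%. Socs3 holds 1 match to TTCNNNGAA, at bases -154 to -146, a motif found in 8.30% of windows. Cish holds 2 matches to it, at bases 1 to 9 and 12 to 20, and 0.457% of windows hold 2 or more. The Cish stretch and the Socs3 stretch both lie within the span of the gene as counted, so the starts used here are RefSeq's. The window of Socs4, the only uncalled member with a window, held none of the 3 motifs. The STAT6 form, present in 6.95% of windows, was in none of the 4. A match describes letters only, and binding at these sites was not measured.

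The remaining members moved little. Socs2 (ENSMUSG00000020027, chromosome 10), like Cish a STAT5 target and a brake on growth hormone signalling, had 10.7, 10.8 and 11.5 CPM in the knockout-labelled libraries and 10.5, 12.03 and 10.99 CPM in the wild-type-labelled libraries. The groups overlapped, and the log2 difference was -0.02 (95% interval -0.25 to 0.20; edgeR adjusted p = 0.891). That interval does not show equal levels, and whether Socs2 differed from Cish in its change was not tested. The ratio of Cish to Socs2 per length was 0.391, 0.567 and 0.459 in the knockout-labelled libraries, against 0.331, 0.264 and 0.320 in the wild-type-labelled libraries, without overlap.

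Socs4 (ENSMUSG00000048379, chromosome 14) and Socs5 (ENSMUSG00000037104, chromosome 17) encode long-tailed members known for acting on the epidermal growth factor receptor. Socs4 had 58.0, 48.2 and 50.3 CPM in the knockout-labelled libraries and 55.3, 57.1 and 52.5 CPM in the wild-type-labelled libraries, with the groups overlapping (log2 difference -0.07, 95% interval -0.19 to 0.04; edgeR adjusted p = 0.319). Its highest value was that of knockout replicate 1, and without this library the difference was -0.16 and passed (edgeR adjusted p = 0.0434). Socs5 had 39.6, 40.9 and 43.0 CPM against 38.2, 39.5 and 41.4 CPM, nearly the same range (log2 difference 0.05, 95% interval -0.07 to 0.17; edgeR adjusted p = 0.552).

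Socs6 (ENSMUSG00000056153, chromosome 18), which encodes a protein that binds the receptor tyrosine kinases KIT and FLT3, had 60.2, 59.1 and 65.5 CPM in the knockout-labelled libraries and 62.9, 58.8 and 57.9 CPM in the wild-type-labelled libraries. The groups overlapped (log2 difference 0.04, 95% interval -0.06 to 0.14; edgeR adjusted p = 0.591). Socs7 (ENSMUSG00000038485, chromosome 11), whose protein binds insulin receptor substrates, had 35.1, 41.8 and 40.4 CPM against 41.6, 41.4 and 45.4 CPM. It was the member nearest to a call in the lower direction, with a log2 difference of -0.13 (95% interval -0.26 to -0.0059) whose adjusted p of 0.0884 in edgeR missed the threshold. It passed with upper-quartile scaling (adjusted p = 0.0464), with total counts alone (0.0209) and on leaving out knockout replicate 2 (0.0353) or wild-type replicate 2 (0.0444). Its lowest value was that of knockout replicate 1, and without that library the difference was -0.057.

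**Figure D2:**
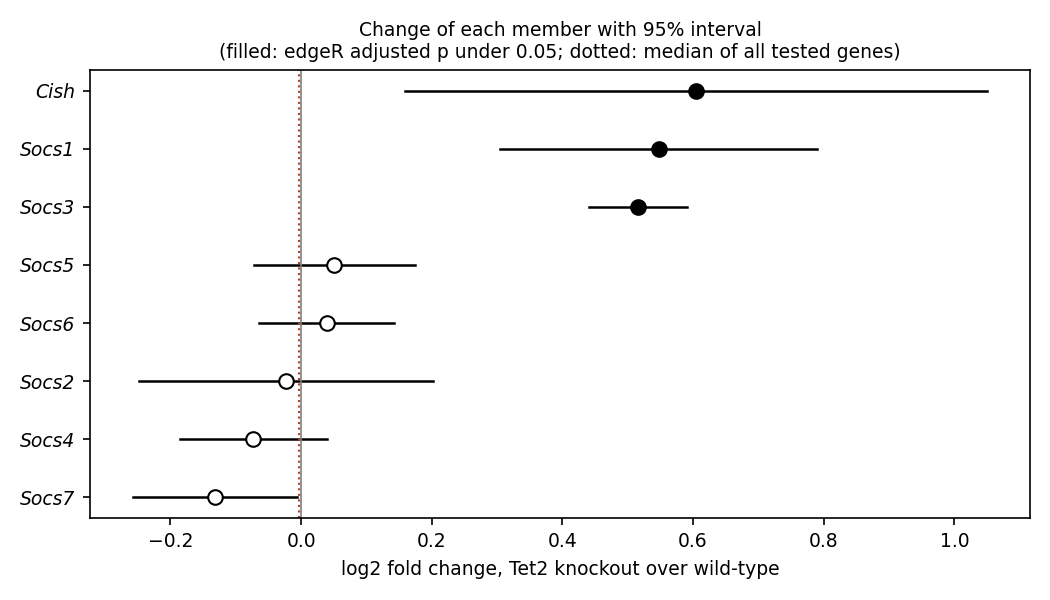
Log2 fold change of each SOCS family gene, knockout-labelled over wild-type-labelled libraries, with its 95% interval from the edgeR fit; filled points passed an adjusted p of 0.05. Cish, Socs1 and Socs3 lie between 0.52 and 0.60, and the other 5 lie between -0.13 and 0.05.

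Per gene length the family was dominated by Socs3. In RPKM, scaled reads per kilobase of the gene length in the table, Socs3 stood at 54.7 ± 2.15 in the knockout-labelled libraries and 38.2 ± 0.248 in the wild-type-labelled libraries (n = 3 each, SD). Socs5 came next at 9.37 ± 0.392 and 9.04 ± 0.359 RPKM, followed by Socs4 at 7.59 ± 0.751 and 7.995 ± 0.338 RPKM and Socs6 at 7.49 ± 0.418 and 7.28 ± 0.321 RPKM. Socs4 and Socs6 overlapped each other within both groups and cannot be ordered, and Socs5 lay above both in every library. Below them were Socs7 at 5.38 ± 0.487 and 5.89 ± 0.312 RPKM and Socs1 at 3.88 ± 0.116 and 2.66 ± 0.153 RPKM. Socs2, at 1.15 ± 0.0472 and 1.17 ± 0.0820 RPKM, and Cish, at 0.544 ± 0.102 and 0.356 ± 0.0193 RPKM, were the lowest, and neither overlapped its neighbour.

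**Figure D3:**
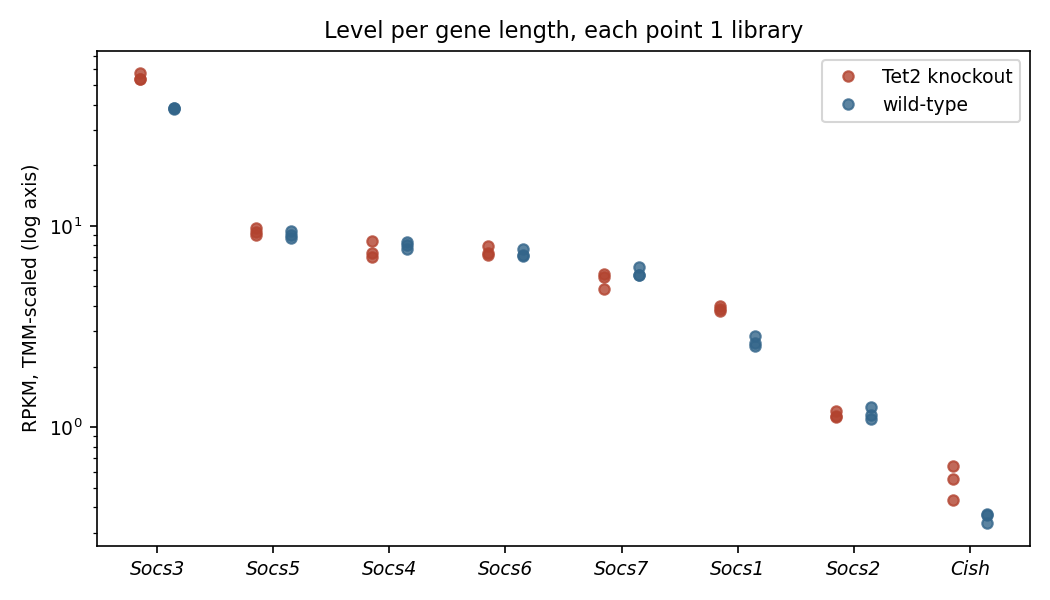
Level per gene length (RPKM on a log axis) of each SOCS family gene, 1 point per library, genes ordered by mean level. Socs3 lies well above the other 7 genes in every library, and Cish lies lowest.

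Socs3 made up 60.7% ± 0.5001 of the summed family RPKM in the knockout-labelled libraries and 52.7% ± 0.0635 in the wild-type-labelled libraries (n = 3 each, SD). The family sum was 88.7, 88.4 and 93.3 RPKM against 72.1, 72.9 and 72.9 RPKM, without overlap between the groups. Most of that gap was Socs3 itself. The ratio of Socs3 to Socs1 per length was 13.4, 13.8 and 15.2 in the knockout-labelled libraries and 14.96, 13.5 and 14.7 in the wild-type-labelled libraries, with the groups overlapping. The ratio of Socs3 to Socs4 was 6.34, 7.62 and 7.83 against 4.72, 4.62 and 5.03, and there the groups did not overlap.

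Among genes whose log2 CPM ran most alike to a called member over the 6 libraries, Fermt3 (kindlin-3, an integrin activator) and the chemokine gene Ccl22 stood beside Socs1 with Pearson r of 0.998 and 0.997, after 2310043P16Rik (0.999). Efhd2, the serotonin receptor gene Htr2b and Tmem229b were most alike to Socs3, with r of 0.999, 0.999 and 0.998. For Cish they were Aida, Gm10689 and Mfsd13a, with r of 0.996, 0.996 and 0.993. The libraries fall into 2 groups and the best of 13175 genes were taken, so these values mostly describe the difference between groups.

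Counts in the lists that follow stand beside 21.6% higher and 19.2% lower over all tested genes. The cytokines that signal through JAK and STAT proteins were split. Of 24 such ligands 13 were tested, 3 were higher, Ebi3 (log2 change 0.79), the interleukin 12 subunit gene Il12b (1.09) and Lif (0.42), and 3 were lower, Clcf1 (-0.51), Il6 (-0.37) and Osm (-0.36). Lif, Clcf1, Il6 and Osm are among the ligands that act through the receptor subunit that SOCS3 binds. Csf2, Il3 and Il5, ligands that signal through STAT5 upstream of Cish, had 0 to 8 reads per library and were not tested. Other ligands whose receptors can signal through STAT5 were tested and did not pass, namely Il15 (-0.08), Il7 (0.02) and Csf3 (0.62). Il15 stood at 17.5 CPM in the knockout-labelled libraries and 18.5 CPM in the wild-type-labelled libraries. Ifnb1 and Ifng had 0 to 2 reads per library and were not tested.

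Receptor subunits were higher in 12 and lower in 6 of 25 tested genes, with a median log2 change of 0.14. The largest changes by p were in Il7r (-0.75), Il21r (1.70), Il6ra (0.77), the ligand-binding interleukin 6 receptor, and Ifnar1 (0.34), a type I interferon receptor subunit. Il6st, the shared subunit that SOCS3 binds, was lower at 255 ± 4.96 CPM in the knockout-labelled libraries and 299 ± 14.5 CPM in the wild-type-labelled libraries (n = 3 each, SD; log2 change -0.23, edgeR adjusted p = 1.71e-10). Among subunits whose receptors can signal through STAT5, Il2rg (0.52), Il15ra (0.46) and Csf3r (0.37) were higher. Il7r, Csf2ra (-0.34), Il3ra (-0.46) and Csf2rb (-0.06) were lower. Csf2rb2 (0.04) and the growth hormone receptor gene Ghr (-0.19) did not pass. The subunits were not grouped by STAT beforehand, so this selection need not be complete, and its split of higher and lower depends on the choice. Called subunits outside it include Il21r (1.70) and Il4ra (0.17), both higher, and Il6st and Ifnar2, both lower. The interferon gamma receptor genes Ifngr1 (0.28) and Ifngr2 (0.14) were higher, as was Ifnar1. Ifnar2, the other type I interferon receptor subunit, was lower (-0.14, edgeR adjusted p = 0.0040).

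Of 9 JAK and STAT genes tested and counted here, 5 were higher and 0 lower, with a median of 0.10 on the log2 scale. Tyk2, a kinase of interferon and interleukin 12 receptors, rose by 0.61, Jak3 by 0.37, Stat2 by 0.35, Stat5a by 0.22 and Stat3 by 0.10. Jak1, Jak2, Stat5b and Stat6 did not pass, and their log2 changes lay between -0.05 and 0.07. With total counts as the only scaling 4 were higher and 1 lower, without wild-type replicate 2 there were 5 and 1, and with an assumed biological coefficient of variation of 0.1 there were 3 higher.

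Genes induced through the STATs did not move as a block. Those of STAT3 were higher in 3 of 13, Fgl2 (1.33), Saa3 (0.24) and Myc (0.19), and lower in 4, Il1rn (-0.44), Vegfa (-0.23), Cebpd (-0.23) and Junb (-0.08).

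Targets of STAT5 other than Cish and Socs2 were higher in 5 of 9 tested members, Igf1 (0.69), Ccnd1 (0.78), Tnfrsf13b (0.55), Ccl22 (1.52) and Bcl2l1 (0.20), and lower in 3, Id1 (-0.38), Pim2 (-0.75) and Dusp5 (-0.25). Targets of STAT6 were higher in 3 of 7, Mrc1 (1.06), Pparg (0.48) and Clec10a (1.52), and lower in 4, Egr2 (-0.67), Klf4 (-0.45), Tgm2 (-0.12) and Arg1 (-0.77). With 8 of 9 and 7 of 7 called, both shares were above the 40.9% of all tested genes, but these lists were short and chosen with earlier results known, and no test set them against other genes.

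**Figure D4:**
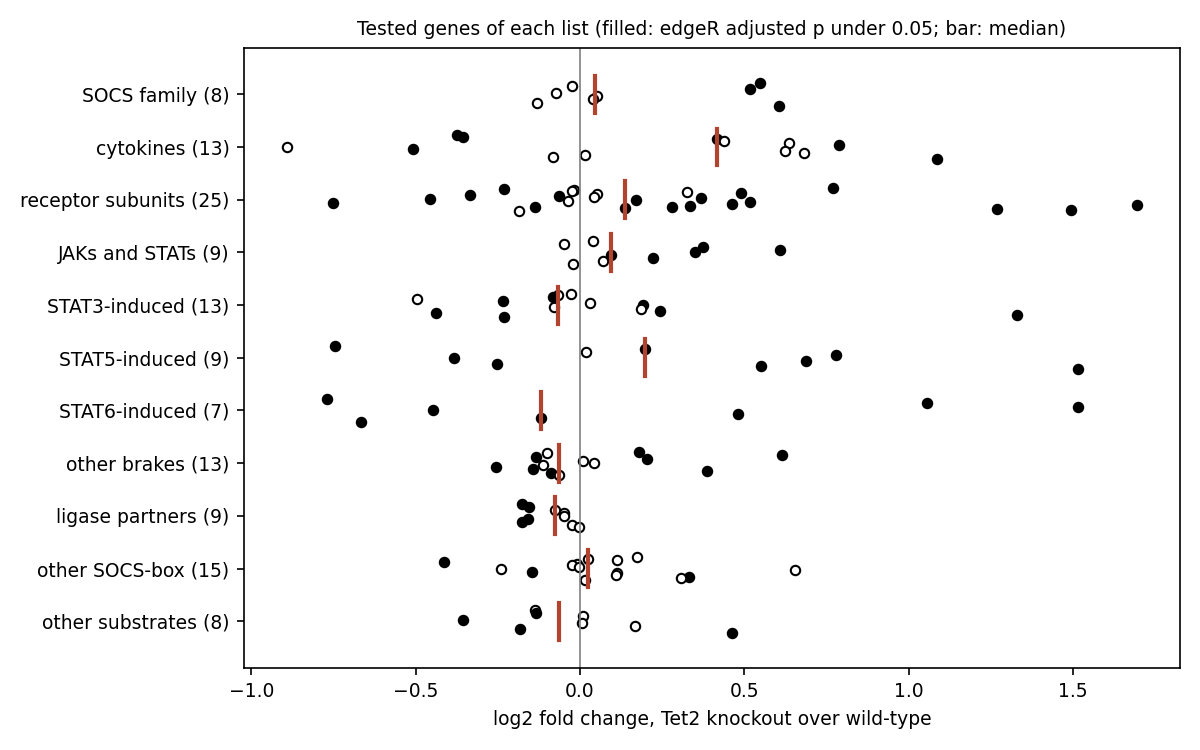
Log2 fold change of the tested genes in the SOCS family and in 10 lists of its pathway, knockout-labelled over wild-type-labelled libraries, with the number tested in brackets; filled points passed an edgeR adjusted p of 0.05 and bars are medians. The JAK and STAT genes that passed all lie above 0, and the ligase partners lie at or below it, with a median of -0.08.

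Of 9 tested partners of the SOCS-box ubiquitin ligase, 0 were higher and 4 lower, namely the adaptors Elob (-0.18) and Eloc (-0.16), the ring protein gene Rbx1 (-0.16) and Arih2 (-0.18), a ligase that works with cullin 5. Cul5 itself did not pass (log2 difference -0.08, edgeR adjusted p = 0.232). The 4 of 9 are close to the 40.9% of all tested genes that passed, and with the assumed variation of 0.1 none of the 9 passed. Among 15 tested genes of other SOCS-box proteins Asb13 was higher (0.33) and Spsb4 (-0.41) and Asb6 (-0.15) were lower.

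Other brakes on JAK and STAT signalling were higher in 4 of 13 tested genes and lower in 4. The phosphatase gene Ptpn6 (SHP-1) had the largest rise, with a log2 change of 0.62 (edgeR adjusted p = 1.30e-35). It stood at 323 ± 5.98 CPM in the knockout-labelled libraries and 211 ± 7.78 CPM in the wild-type-labelled libraries (n = 3 each, SD). Next came the adaptor gene Sh2b3 (0.39), Ptprc (0.20) and Ptpn1 (0.18). The lower ones were Pias4 (-0.25), the interferon receptor brake Usp18 (-0.14), Ptpn11 (-0.13) and Cbl (-0.09). With the assumed biological coefficient of variation of 0.1, 2 of the 13 brakes were higher and 0 lower. Of 8 tested genes for other proteins that SOCS proteins bind, Ptk2b was higher (0.46) and Irs2 (-0.35), Ptk2 (-0.18) and Irak1 (-0.13) were lower.

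**Figure D5:**
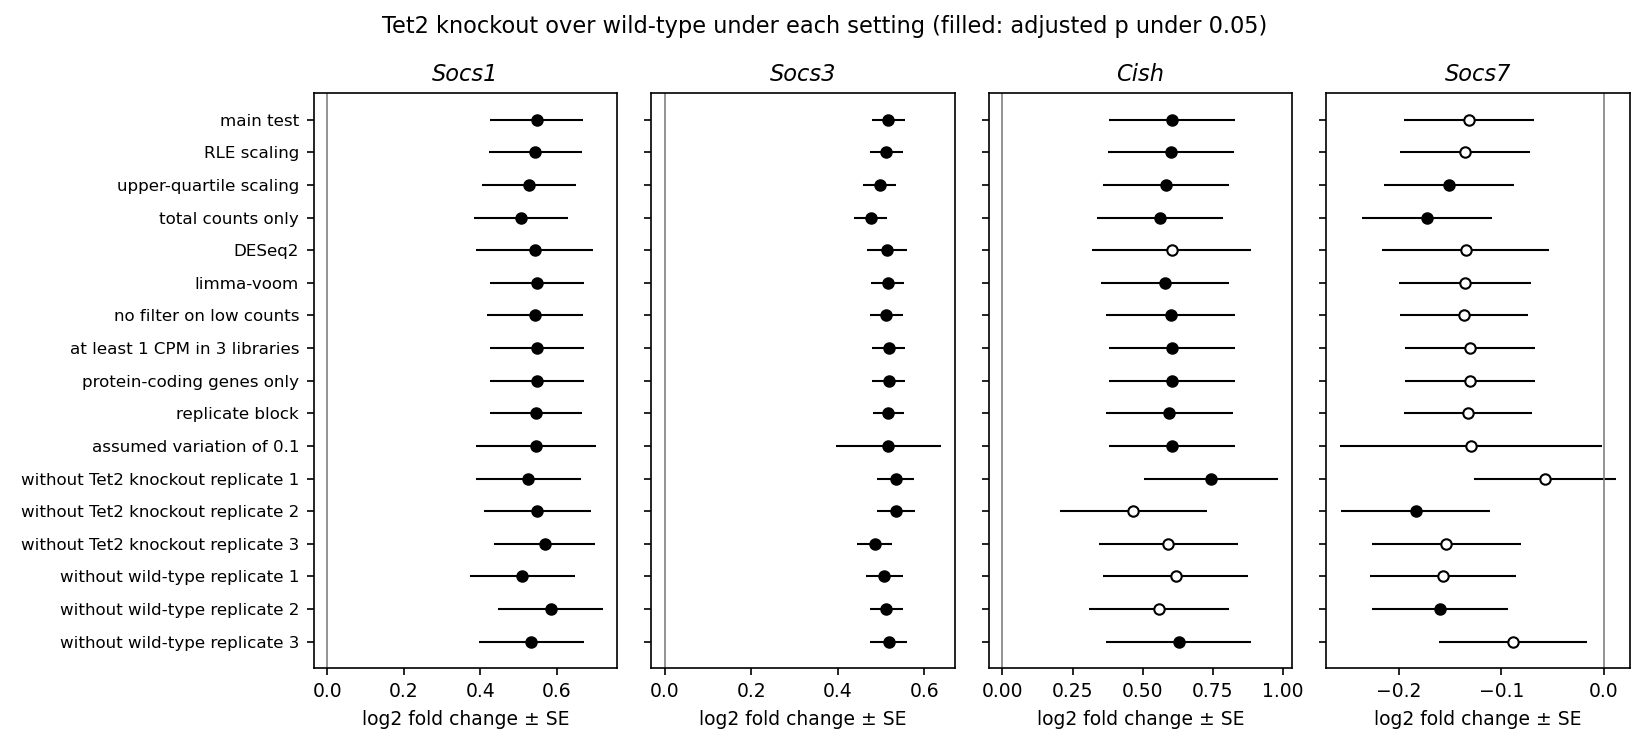
Log2 fold change and SE of Socs1, Socs3, Cish and Socs7 under the main test and 16 alternatives, knockout-labelled over wild-type-labelled libraries; filled points passed an adjusted p of 0.05. Socs1 and Socs3 are filled throughout, Cish under 11 of the 16 alternatives and Socs7 under 4.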

How the data were processed

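The authors deposited raw read counts, 1 whole number per gene and library, for 6 libraries. The submitters' processing notes name fastp, STAR, featureCounts and the build mm10, without versions; no strand setting for the counting is recorded there. Per the labels' protocols, RNA was purified on RNeasy Plus Mini columns and libraries were made with a NEBNext Ultra RNA kit, which does not mark strand.

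Groups followed the titles. Genes were kept by filterByExpr (minimum count 10), scaled by TMM and compared in edgeR 4.0.16 (R 4.3.3) by the quasi-likelihood test (robust) on genotype alone; Benjamini-Hochberg adjustment ran over 13175 genes, with 0.05 as threshold. Fold changes use a prior count of 0.125; likeness used log2(CPM + 0.5). With 3 libraries a group, the smallest p an exact two-sided permutation test can give is 0.1. The test was tried on counts simulated with the spread fitted to these same libraries. That trial cannot show how calls would hold under a wider spread. The gene length used for RPKM is the deposited table's. Alternatives included DESeq2 1.42.0 and limma-voom 3.58.1. Same-numbered libraries did not deviate together (r from -0.0040 to 0.016), so numbers were not taken as pairs.

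Members and lists were chosen with earlier results of these data known. Named genes are the 8 members, Tet2, up to 4 called genes of each list with the smallest p, all called genes where 5 or fewer moved one way, and the 3 genes most like each of Socs1, Socs3 and Cish; the macrophage markers, Col1a1, Cd4, Il6st, the STAT5-linked receptor subunits, Ifngr1, Cul5 and the uncalled genes named were added after their values were seen. An item of the pathway lists is not reported here.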

Additional observations from a re-analysis of the deposited data

How the results depend on the processing

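Socs1 and Socs3 kept their direction and passed under all 16 alternatives, with log2 changes from 0.51 to 0.58 and from 0.48 to 0.53, and adjusted p up to 0.0065 and 0.00042. Cish kept its direction (0.47 to 0.74) and passed under 11, with adjusted p from 0.0115 to 0.161. The number of members called lower went from 0 to 1 (Socs7) with upper-quartile scaling and with total counts only, and was 0 to 1 when a library was left out; members called numbered 2 to 4 and those called higher 2 to 3. Socs6 changed sign with total counts only (-0.0017) and ran from -0.0055 to 0.073 when a library was left out, and Socs2 from -0.070 to 0.023; neither was called under any alternative. With an assumed biological coefficient of variation of 0.1, in place of the fitted 2.63%, 1885 genes passed, 1222 higher and 663 lower, and Socs1, Socs3 and Cish remained called. With total counts only, 2354 genes were higher and 3280 lower, against 2852 and 2533 with TMM, and the median log2 change of all tested genes was -0.044. DESeq2 called 4153 genes. The fit with the replicate number as a block called 5259 genes and 3 members, and Cish stayed past the threshold; the labels do not say that numbers pair libraries. The cause of these changes was not tested. Cish had the fewest reads of the members, at 26 to 58 per library.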
